A study of Solanum lycopersicum with 24 samples.

Results

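The anthocyanin free (af) mutant of tomato was compared with CHI9, a complemented line of it, in gland cells collected from type VI trichomes of leaves. The comparison took every library labelled with these genotypes, which were 16 of the 24 sequenced samples. They are 8 of the 12 libraries of the study, since each library was run on 2 lanes that were summed, and a second complemented line, CHI4, holds the other 4 libraries. The labels call the groups only af mutant and complemented line, and name no other allele, agent or background strain for either. Plants of all genotypes grew for 5 weeks in potted soil in a growth chamber at 28 ºC under 250 µE, and each genotype was collected at 4 sampling times. That af lacks a working chalcone isomerase and that the line carries one again is known from general knowledge and not from the labels, and neither the promoter of the introduced gene nor the pooling of plants is given there. CHI9 is a single line, so what its insertion or its ancestry adds is shared by all 4 of its libraries.

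Type VI trichomes are the short leaf hairs of tomato that carry a head of gland cells on a stalk. The gland cells make monoterpenes and sesquiterpenes from isoprenoid precursors of the plastid and the cytosol, and they also accumulate flavonoids. Chalcone isomerase closes the ring of naringenin chalcone to give a flavanone, from which flavonols and anthocyanins are made.

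The libraries held between 8.99 M counts, in CHI9 replicate 2, and 70.9 M, in af replicate 1. Levels are in counts per M counts (CPM), and the most that a count of 0 permits, by counting error alone, was 0.0423 CPM in af replicate 1 and 0.334 CPM in CHI9 replicate 2. CHI9 replicate 2 also stood apart on the first principal component of the 8 libraries, which held 39.5% of the variance, at 134 against 27.0 to 68.9 in the other CHI9 libraries and -79.0 to -56.0 in af. In af replicate 4 the lanes were uneven, with 0.450 counts on lane 2 for each on lane 1, whereas af replicates 1 to 3 had 0.985 to 0.988. Its lanes also differed beyond depth, with a ratio from 0.398 to 0.605 over the chromosomes and a chi-square per degree of freedom over genes of 7.20, against 1.91 to 1.98 in af replicates 1 to 3. The markers of type VI gland cells (NDPS1, TPS19/20, TPS12, EOT1 and MYC1) all had counts in every library, and their summed level was 4061 to 5359 CPM in af and 19760 to 23970 CPM in CHI9. The markers did not move together, since NDPS1, TPS19/20 and TPS12 fell, EOT1 rose by 0.93 and MYC1 differed by -0.06 without passing. Bulk counts cannot tell fewer cells of a type from less RNA per cell.

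Chalcone isomerase CHI1 (Solyc05g010320) was measured at 210.5, 252, 340 and 239 CPM in af replicates 1 to 4. In CHI9 it had 530, 701, 718 and 790 CPM. The lowest CHI9 library lay above the highest af library, and no library went against its label. The log2 difference, af minus CHI9 in this and all other values below, was -1.39 (SE 0.250, edgeR adjusted p = 0.000666), and it lay between -1.55 and -1.02 over 20 other settings, with an adjusted p of at most 0.00562. Counts of the native gene and of an introduced copy cannot be separated here. Around CHI1 on chromosome 5, 1 of the 20 nearest tested loci (10 on each side) was lower in af and 0 were higher. Over the whole chromosome 13.7% of the tested genes were lower and 8.57% higher. With so few loci, several of them scarce, this does not show that the region is unchanged.

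Of 18326 genes tested, 1623 were higher in af (8.86%) and 2127 lower (11.6%) at an adjusted p below 0.05. Together they were 20.5% of the tested genes. Changes of at least 2-fold were seen for 903 higher genes (4.93%) and 939 lower ones (5.12%). The libraries differ in composition, and with scaling to library size alone, in place of TMM, the median log2 difference of all tested genes moved by 0.39, from 0.05 to 0.43. The split of the calls then turned from 43.3% higher and 56.7% lower to 82.9% higher (4583 genes, 25.0% of those tested) and 17.1% lower (944 genes, 5.15%). All 944 of those were among the 2127 lower genes, and all 1623 higher genes were still higher.

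Without CHI9 replicate 2 the counts were 1445 higher (7.68%) and 1912 lower (10.2%), and 3032 of the 3750 genes were called in the same direction. With lane 2 alone for af replicate 4 they were 1580 (8.61%) and 2149 (11.7%), with 3556 genes called in the same direction. With the collection as a block in the fit, 25.8% of the genes were called. All 4 collections showed the direction of the call for 1570 of the higher genes (96.7%) and 2047 of the lower ones (96.2%). The calls rest on these same libraries, so such agreement largely follows from them and is no separate support. The median difference within a collection ran from -0.96 to -0.82 for the lower genes and from 0.97 to 1.18 for the higher ones. All af libraries lay above all CHI9 libraries for 1348 of the higher genes, and below them for 1727 of the lower ones. Over all tested genes, called or not, such separation was seen upward for 11.8% and downward for 11.2%.

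Lower calls were most frequent among abundant genes. Of the 98 tested genes whose mean reached 1000 CPM, 53 were lower in af (54.1%) and 6 higher (6.12%), and with library size alone 41 were lower and 17 higher. Between 10 and 100 CPM 15.3% were lower and 10.96% higher, and below 1 CPM 1.03% and 2.51%. These classes follow the counts a gene takes, which grow with its length as well as with its transcripts, and power to call a change grows with them too. In af the genes called lower took 24.2% to 27.7% of all gene counts, against 45.8% to 47.6% in CHI9. The genes called higher took 10.7% to 12.6% in af and 4.21% to 5.10% in CHI9. Of the 20 genes with the most counts, 11 were lower in af, 0 were higher and 9 were not called.

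**Figure D1:**
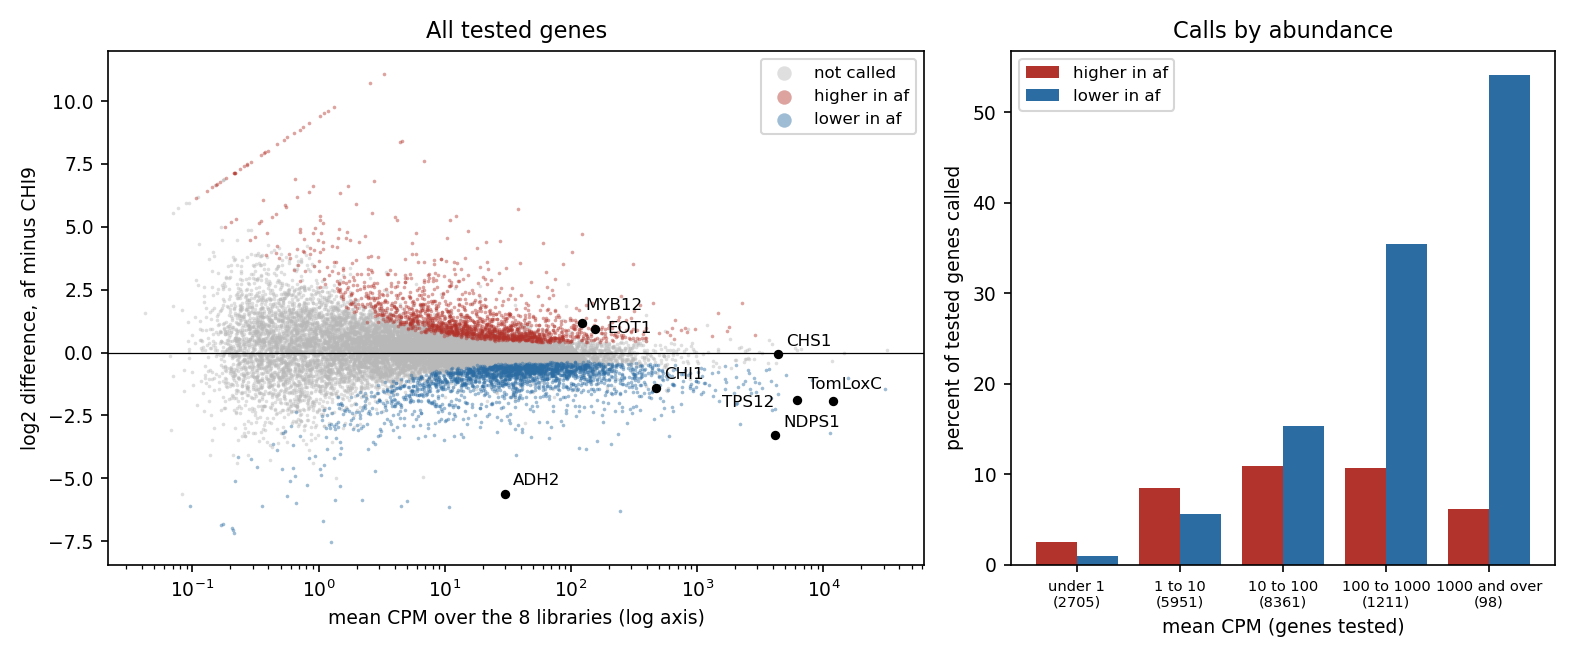
Left, the log2 difference (af minus CHI9) of each of the 18326 tested genes against its mean CPM over the 8 libraries on a log axis, with genes higher in af in red, lower in blue and others in grey. Right, bars give the percent of tested genes called in each abundance class, which reaches 54.1% lower among genes of at least 1000 CPM, and the straight line of points at the upper left holds genes with no count in any CHI9 library.

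Most listed genes of isoprenoid and terpene synthesis fell in af, with falls in each list from the plastid precursors to the terpene synthases. The methylerythritol phosphate (MEP) pathway makes the 5-carbon units used for monoterpenes. Of its 8 listed loci, 7 fell in af and 0 rose, with a list median of -1.27 against 0.05 over all tested genes. For this and every other list, the shares over all tested genes were 11.6% lower and 8.86% higher. DXS2 (Solyc11g010850), which makes the first intermediate, had 1367, 1346, 2470 and 1936 CPM in af and 2760, 3197, 5031 and 4870 CPM in CHI9, a difference of -1.16 (SE 0.240, adjusted p = 0.00183). DXR (Solyc03g114340), the next enzyme, had 468, 486, 708 and 560 CPM in af and 1165, 1365, 2087 and 1971 CPM in CHI9. Its log2 difference was -1.57 (SE 0.231, adjusted p = 7.22e-05), and the groups did not overlap.

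HDR (Solyc01g109300), which releases the pathway's products, had 1584, 1524, 1557 and 1307 CPM in af and 3701, 3889, 5235 and 4706 CPM in CHI9. Its libraries did not overlap, and it fell by 1.55 (SE 0.164, adjusted p = 2.02e-06). CMK, MDS, HDS and MCT, the enzymes between them, fell by 1.42, 1.38, 1.14 and 0.78 on the log2 scale. DXS1 (Solyc01g067890), the paralog of DXS2, was the member not called, with a difference of -0.35 (adjusted p = 0.0834), although all 4 af libraries lay below all 4 CHI9 libraries. DESeq2 called DXS1 lower, at -0.37 (adjusted p = 0.0474).

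In the mevalonate pathway, the cytosolic route to the same units, 5 of 10 listed loci fell and 0 rose, and the median was -0.77. HMGS (Solyc08g080170) had 154, 154, 147 and 183 CPM in af and 340, 366, 426 and 517 CPM in CHI9, a fall of 1.37 (SE 0.168, adjusted p = 1.09e-05). An acetoacetyl-CoA thiolase, AACT Solyc07g045350, fell by 1.28, mevalonate kinase (MVK) by 1.04, and the decarboxylase (MVD) loci Solyc04g009650 and Solyc11g007020 by 0.98 and 0.96. HMG-CoA reductase, known as the control point of the route, was not called at either locus. HMGR1 differed by -0.42 (adjusted p = 0.207) and HMGR2 by 0.01 (adjusted p = 0.979). Farnesyl diphosphate synthase FPS1, which makes the sesquiterpene precursor, differed by -0.59 without passing (adjusted p = 0.271), and with the collection as a block it was called lower (adjusted p = 0.0227). Squalene synthase SQS1, which draws that precursor into sterols, differed by -0.02 (adjusted p = 0.934), and with library size alone it was higher in af, at 0.36 (adjusted p = 0.0487).

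All 4 tested prenyl diphosphate loci of 6 listed fell, with a median of -1.52. Neryl diphosphate synthase NDPS1 (Solyc08g005680), which joins the units into the monoterpene precursor of these glands, had 635, 625, 923 and 886 CPM in af and 6763, 7675, 8341 and 7290 CPM in CHI9. The groups were far apart, and NDPS1 fell by 3.29 (SE 0.192, adjusted p = 1.46e-09), or 3.04 to 3.62 within single collections. Isopentenyl diphosphate isomerase (IDI, Solyc04g056390) had 2820, 2430, 2026 and 2283 CPM in af and 5836, 5384, 4922 and 4852 CPM in CHI9, a fall of 1.13 (SE 0.158, adjusted p = 3.98e-05). The geranylgeranyl diphosphate synthases GGPPS2 and GGPPS3, which feed carotenoids and diterpenes, fell by 1.75 and 1.30.

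Of 16 listed terpene synthase loci 13 were tested, and 10 of these fell while 0 rose, with a median of -2.01. TPS19/20 (Solyc08g005670), a locus counted here as a single model for near-identical phellandrene synthases, had 540, 377, 724 and 525 CPM in af. In CHI9 it had 3521, 4574, 4364 and 2958 CPM, and it fell by 2.83 (SE 0.212, adjusted p = 3.77e-08). TPS12 (Solyc06g059930), which makes the sesquiterpenes caryophyllene and humulene, had 2458, 2235, 2861 and 2924 CPM in af and 8661, 9372, 10540 and 10530 CPM in CHI9. It fell by 1.90 (SE 0.175, adjusted p = 4.53e-07). For each of these genes every af library lay below every CHI9 library.

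The largest falls of this list among genes with no overlap were in TPS33 and TPS17. TPS33 (Solyc01g101170) had 4.95, 3.46, 6.13 and 1.61 CPM in af and 77.0, 54.5, 56.1 and 90.9 CPM in CHI9, a fall of 4.09 (SE 0.466, adjusted p = 7.66e-05). TPS17 (Solyc12g006570) had 57.8, 47.2, 51.3 and 26.3 CPM in af and 433, 501, 385 and 383 CPM in CHI9, a fall of 3.22 (SE 0.266, adjusted p = 3.38e-07). TPS39, TPS18, TPS21 and TPS5 fell by 2.93, 2.40, 2.01 and 1.52, and a further terpene synthase locus, Solyc10g005410, by 1.56. TPS3 (Solyc01g105870) had no count in any af library and 30 counts over CHI9, where the replicates stood at 0, 1.06, 0.364 and 0.210 CPM. It was called lower in af, with an adjusted p of 0.0275. The pooled CHI9 level was 13.7-fold that of 3 counts over all af libraries, on library size without TMM. The spread of the CHI9 libraries is not in this ratio, and in collection 1 neither library had a count. This call was lost without CHI9 replicate 2 or without af replicate 1, 2 or 4, with adjusted p of 0.0581 to 0.0692.

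The other 3 tested terpene synthases were not called. TPS8 differed by -0.85 (adjusted p = 0.0548) and TPS41 by -1.04 (adjusted p = 0.0518), and with the collection as a block they were called lower, with adjusted p of 4.18e-05 and 0.000898. TPS8 was also called without af replicate 3 (adjusted p = 0.0111), and TPS41 without that library (0.0215) or without CHI9 replicate 1 (0.00621) or 2 (0.0451). Both were highest in collection 3 in af and in CHI9, TPS41 (Solyc08g005710) with 370, 446, 867 and 594 CPM in af and 551, 854, 1691 and 1579 CPM in CHI9. The kaurene synthase TPS24, an enzyme of gibberellin synthesis, differed by 0.76 (adjusted p = 0.0907), and it was called higher in af without CHI9 replicate 2 (adjusted p = 0.0488), with library size alone (0.00745) and by limma-voom (0.0338). TPS18, TPS19/20, NDPS1, TPS41 and TPS21 are neighbours on chromosome 8, between locus numbers Solyc08g005640 and Solyc08g005720, and all except TPS41 were called. With library size alone in place of TMM the lower calls numbered as before in the MEP (7), mevalonate (5), prenyl (4) and terpene synthase (10) lists, and without CHI9 replicate 2 they numbered 7, 6, 4 and 10. Over all of chromosome 8, 11.9% of the tested genes were lower and 7.88% higher, within the range over the 12 chromosomes of 8.94% to 13.7% lower and 7.32% to 11.1% higher.

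**Figure D2:**
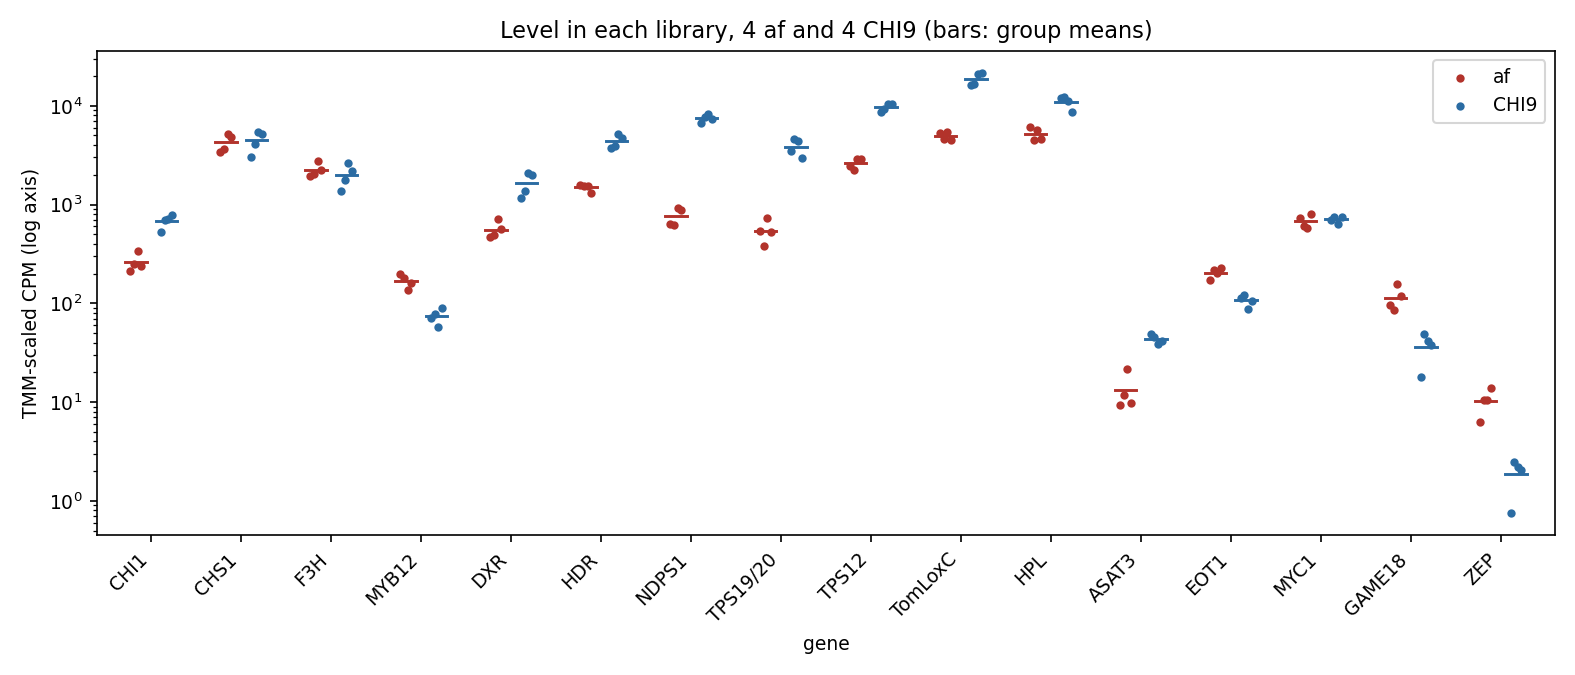
TMM-scaled CPM on a log axis for 16 genes in each of the 4 af (red) and 4 CHI9 (blue) libraries, with bars at the group means. NDPS1 lies between 625 and 923 CPM in af and between 6763 and 8341 CPM in CHI9, while CHS1, F3H and MYC1 overlap between the groups.

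Neither the enzymes that make the substrate of chalcone isomerase nor those that follow it on the way to flavonols passed the threshold. Of 7 listed loci of the flavonoid core, 1 fell, which was CHI1 itself, and 0 rose, with a median of 0.00 on the log2 scale. Chalcone synthase CHS1 (Solyc09g091510) had 3398, 3609, 5132 and 4874 CPM in af and 3057, 4120, 5426 and 5210 CPM in CHI9, a difference of -0.07 (SE 0.208, adjusted p = 0.863). CHS2 (Solyc05g053550), its close paralog, differed by 0.00 (SE 0.198, adjusted p = 0.999). Flavanone 3-hydroxylase (F3H, Solyc02g083860) had 1958, 2036, 2784 and 2244 CPM in af and 1375, 1775, 2622 and 2205 CPM in CHI9, a difference of 0.18 (SE 0.198, adjusted p = 0.579). With library size alone F3H was called higher, at 0.56 (adjusted p = 0.017). Flavonol synthase FLS differed by 0.07 (SE 0.257, adjusted p = 0.885). Missing the threshold does not show that these levels were equal.

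Pairing by collection changed the call of 2 flavonoid genes. CHIL (Solyc05g052240), a chalcone isomerase-like protein known as a helper of the pathway, had 656, 902, 2135 and 1122 CPM in af and 860, 1553, 2790 and 1929 CPM in CHI9. In each of the 4 collections af was lower, while the level moved more between collections than between genotypes. The difference was -0.57 (SE 0.377, adjusted p = 0.33) without the block and was called with it (adjusted p = 0.00546) and without af replicate 3 (adjusted p = 0.0439). Flavonoid 3'-hydroxylase (F3'H, Solyc03g115220), which adds a hydroxyl group to the B ring, differed by 0.52 (adjusted p = 0.187). With the collection as a block it was called higher in af (adjusted p = 0.0036), and also without CHI9 replicate 4 (adjusted p = 0.0354). F3'H was called higher with library size alone too, at 0.91 (adjusted p = 0.0115). In collection 4 its difference was -0.02, and in the other 3 it was 0.60 to 0.92.

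On the branch to anthocyanins, 3 of 5 listed loci fell and 0 rose, with a median of -0.59. F3'5'H (Solyc11g066580), which directs flavonoids to blue delphinidin types, was scarce, at 0.323, 1.51, 0.115 and 0.549 CPM in af and 4.66, 12.2, 2.31 and 3.34 CPM in CHI9. It fell by 3.13 (SE 0.721, adjusted p = 0.004). The glycosyltransferase RT (Solyc09g059170), which adds rhamnose, had 1962, 1749, 2264 and 1762 CPM in af and 2624, 3575, 3512 and 2753 CPM in CHI9. It fell by 0.69 (SE 0.164, adjusted p = 0.00515), and this call was lost with library size alone (-0.31, adjusted p = 0.124). The glucosyltransferase 3GT fell by 0.59 (adjusted p = 0.0407), and its call was lost with library size alone (adjusted p = 0.425). It was also lost without CHI9 replicate 2, 3 or 4 or af replicate 1 or 2, with adjusted p of 0.0548 to 0.143.

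Dihydroflavonol reductase (DFR, Solyc02g085020), the entry enzyme to anthocyanins, had 2.63, 1.95, 2.00 and 1.29 CPM in af and 0, 0, 0.425 and 0.514 CPM in CHI9. All af libraries lay above all CHI9 libraries, and the difference of 2.94 did not pass (adjusted p = 0.0695). DFR was called higher in af by DESeq2 (adjusted p = 0.02), by limma-voom (0.0135), with library size alone (0.0291) and with halved counts (0.048). Anthocyanidin synthase ANS differed by 0.72 (adjusted p = 0.234).

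Among 9 listed regulators of flavonoid genes, 5 were tested, of which 2 rose and 0 fell. MYB12 (Solyc01g079620), an activator of flavonol genes, had 198, 180, 136 and 160 CPM in af and 70.4, 78.1, 57.6 and 89.3 CPM in CHI9. The groups did not overlap, and it rose by 1.19 (SE 0.222, adjusted p = 0.000861). HY5 (Solyc08g061130), a light-signalling factor, had 63.1, 38.1, 14.6 and 40.9 CPM in af and 17.7, 24.6, 17.9 and 16.6 CPM in CHI9, and in collection 3 af was the lower of the pair. Its rise of 1.04 (adjusted p = 0.0318) was lost without CHI9 replicate 1, 3 or 4 or af replicate 1, 2 or 4, with adjusted p of 0.0612 to 0.105. It was also lost without the low-count filter (0.0518), and with the collection as a block in the af and CHI9 libraries alone (0.0502). Of the 12 listed loci at the entry of phenylpropanoid synthesis 7 were tested, 2 rose and 1 fell, where 8.86% of all tested genes were higher and 11.6% lower.

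The phenylalanine ammonia-lyases, which supply the pathway with cinnamic acid, differed from each other in direction. PAL Solyc05g056170 had 113, 134, 127 and 190 CPM in af and 70.3, 49.2, 41.5 and 103 CPM in CHI9 and rose by 1.09 (SE 0.346, adjusted p = 0.041), a call that was lost without any single library but CHI9 replicate 4, with adjusted p of 0.0538 to 0.113. PAL Solyc09g007900 rose by 0.53 (adjusted p = 0.0405), lost without CHI9 replicate 1, 2 or 4 or af replicate 2 or 4 (adjusted p of 0.0536 to 0.148) and with lane 2 alone for af replicate 4 (adjusted p = 0.0519). PAL Solyc09g007910 and PAL Solyc10g086180 differed by 0.86 and -1.04 without passing, and with the collection as a block they were called higher (adjusted p = 0.000258) and lower (adjusted p = 0.0041). They were also called without CHI9 replicate 4 (0.0396) and without af replicate 3 (0.0368), respectively. A cinnamate 4-hydroxylase model, C4H Solyc05g047530, had no count in af and 29 over CHI9. It was called lower in af (adjusted p = 0.0146), at a level below 0.4 CPM in each CHI9 library. With halved counts, with lane 1 alone or with lane 2 alone, 0 loci of this list were called lower, so this call was not kept there. The pooled CHI9 level was 13.2-fold that of 3 counts over all af libraries, on library size without TMM and without the spread of CHI9.

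**Figure D3:**
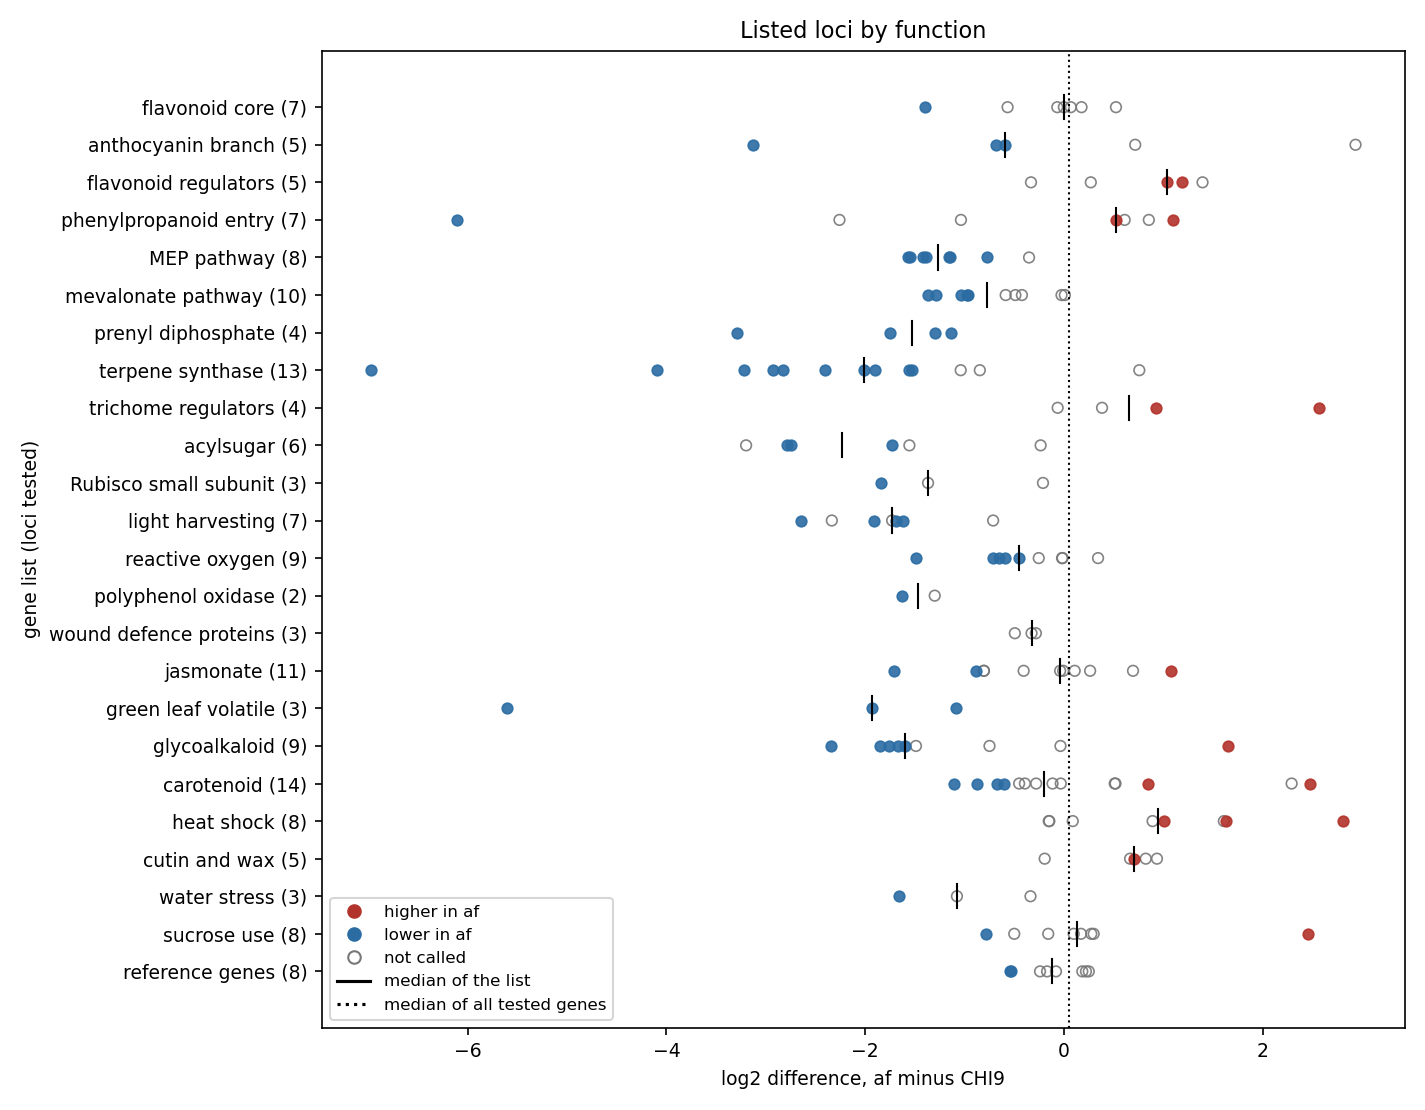
Log2 difference (af minus CHI9) of each tested listed locus, by gene list with the number of loci tested, with filled points for loci higher (red) or lower (blue) in af and open points for those not called. Black ticks are list medians, among them -2.01 for the terpene synthases and 0.95 for the heat shock genes, and the dotted line is the median of all tested genes, 0.05.

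Of 6 listed regulators of trichome and gland development, 4 were tested, of which 2 rose and 0 fell, with a median of 0.66. The shares of all tested genes were 8.86% higher and 11.6% lower. EOT1 (Solyc02g062400), a zinc finger factor of type VI glands that activates terpene synthase promoters, had 170.5, 215, 200.4 and 230.2 CPM in af. In CHI9 it had 114, 122, 87.2 and 106 CPM, and it rose by 0.93 (SE 0.154, adjusted p = 0.000241), in the opposite direction to the terpene synthases. Woolly (Solyc02g080260), a homeodomain factor needed for trichome formation, was scarce, at 3.06, 1.84, 2.28 and 2.35 CPM in af and 0.103, 0.354, 0.668 and 0.468 CPM in CHI9. It rose by 2.57 (SE 0.704, adjusted p = 0.0133). MYC1 (Solyc08g005050), a bHLH factor required for type VI glands, had 722, 609, 583 and 794 CPM in af and 700.0, 740, 639 and 748 CPM in CHI9. Its difference was -0.06 (SE 0.148, adjusted p = 0.816). The homeodomain factor CD2, which acts in cuticle formation, differed by 0.38 (adjusted p = 0.132).

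Transcripts that mark other cell types moved in different directions. The acylsugar genes are markers of the tip cells of type I and IV trichomes. Of the 6 tested (7 listed) 3 fell and 0 rose, with a median of -2.24, where 11.6% of all tested genes were lower and 8.86% higher. ASAT3 (Solyc11g067270), an acyltransferase that builds acylsugars, had 9.29, 11.7, 21.8 and 9.83 CPM in af and 48.5, 45.8, 39.1 and 41.1 CPM in CHI9. It fell by 1.73 (SE 0.228, adjusted p = 2.33e-05). AACS1 and AECH1, which prepare acyl-CoA donors, fell by 2.74 (adjusted p = 0.0136) and 2.78 (adjusted p = 0.0428), and AECH1 was not called without CHI9 replicate 1, 2 or 3 or af replicate 2 or 4 (adjusted p of 0.0593 to 0.115). AACS1 (Solyc07g043630) was lower in af in 3 of 4 collections, at 0.434, 0.523, 0.230 and 0.235 CPM in af and 0.206, 4.60, 2.92 and 2.22 CPM in CHI9. Its call was lost with the collection as a block in the af and CHI9 libraries alone (adjusted p = 0.119). ASAT4 differed by -3.20 (adjusted p = 0.103), and it was called lower with lane 2 alone for af replicate 4 (0.0343), by DESeq2 (0.0423) and by limma-voom (0.0411). The summed level of the 4 ASAT markers was 9.76 to 21.8 CPM in af and 42.1 to 50.4 CPM in CHI9, with ASAT1 and ASAT4 below 1 CPM on average in both. The 4 markers of pavement epidermis (CD1, CD2, CD3 and CER6) summed to 149 to 170.3 CPM in af and 91.8 to 107 CPM in CHI9, and 1 of them was called. This was CER6 (Solyc02g085870), an enzyme of wax synthesis, at 101, 86.0, 92.9 and 120 CPM in af and 61.4, 55.7, 61.3 and 65.4 CPM in CHI9, a rise of 0.71 (SE 0.168, adjusted p = 0.00489). The part of these cells in the other results was not tested.

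Photosynthetic genes, which both green leaf cells and type VI glands express, were lower in af where they were called. Of 12 listed light-harvesting loci 7 were tested, 4 fell and 0 rose, with a median of -1.73. Solyc02g070940 had 117, 136, 87.9 and 101 CPM in af and 287, 340, 323 and 409 CPM in CHI9, and fell by 1.62 (SE 0.184, adjusted p = 4.93e-06). Solyc03g005760 fell by 1.69, and its neighbours Solyc03g005770 and Solyc03g005780 by 1.92 and 2.64. Of the 3 small subunits of Rubisco, the carbon-fixing enzyme, Solyc02g063150 fell by 1.84 (SE 0.157, adjusted p = 2.36e-07). Solyc03g034220 differed by -0.21 (adjusted p = 0.319) and Solyc02g085950 by -1.37 (adjusted p = 0.0808). The 15 green-cell markers summed to 377 to 541 CPM in af and 972 to 1065 CPM in CHI9, and 6 of them lay below 1 CPM on average in both. Members of these families are near-identical, and how reads were divided among them by the counting is uncertain.

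The 3 listed genes of green leaf volatile synthesis, which turns linolenic acid into short-chain aldehydes and alcohols, all fell. The lipoxygenase TomLoxC (Solyc01g006540) had 5327, 4588, 5410 and 4460 CPM in af and 16120, 16570, 21100 and 21570 CPM in CHI9. It fell by 1.93 (SE 0.177, adjusted p = 4.5e-07). Hydroperoxide lyase (HPL, Solyc07g049690), which cleaves the lipoxygenase product, had 6081, 4495, 5628 and 4556 CPM in af and 11990, 12230, 11230 and 8684 CPM in CHI9. It fell by 1.09 (SE 0.175, adjusted p = 0.000181). The alcohol dehydrogenase ADH2 (Solyc06g059740) had 0.991, 0.539, 2.81 and 0.392 CPM in af and 15.3, 95.2, 70.6 and 53.5 CPM in CHI9. It had the 4th largest fall of the 1597 lower genes whose mean reached 5 CPM and whose groups were separate, at -5.61 (SE 0.761, adjusted p = 0.000586). TPS33, NDPS1, TPS17, TPS39 and TPS19/20 were the other listed genes among the first 50 of that ranking, and 0 listed genes were among the first 50 of the 1071 that rose.

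Unnamed loci held the ends of those rankings. Solyc02g078650 had 7.26, 6.11, 7.84 and 2.82 CPM in af and 375, 428, 742 and 372 CPM in CHI9, and Solyc07g054780 had 0.212, 0.0635, 0.507 and 0.548 CPM in af and 14.2, 32.3, 16.2 and 22.8 CPM in CHI9. Among those that rose, Solyc03g116820 had 12.6, 19.1, 13.6 and 9.32 CPM in af and 0.0257, 0, 0.213 and 0 CPM in CHI9, from 8 counts in the 4 CHI9 libraries. Solyc02g076830 had 55.4, 85.8, 72.0 and 83.8 CPM in af and 1.75, 1.53, 0.729 and 1.64 CPM in CHI9. The differences of these 4 loci were -6.30, -6.15, 7.62 and 5.72, and no name or role is given to them in the sources used here.

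The polyphenol oxidase Solyc08g074620, an enzyme that browns phenolics when glands break, had 2482, 2146, 2163 and 1721 CPM in af and 6411, 6547, 7791 and 5670 CPM in CHI9. It fell by 1.63 (SE 0.167, adjusted p = 1.42e-06), and it was 1 of 2 tested polyphenol oxidase loci of 5 listed. Of the 3 tested wound defence loci 0 were called. Jasmonate is the hormone that raises gland defences in tomato, and of its 11 listed genes 2 fell and 1 rose, with a median of -0.04. These counts are near the shares of all tested genes (11.6% lower and 8.86% higher). The synthesis enzymes AOS2 (Solyc11g069800) and AOC (Solyc02g085730) fell by 1.71 (SE 0.236, adjusted p = 5.97e-05) and 0.89 (SE 0.169, adjusted p = 0.000854). JAZ3 (Solyc03g122190), a repressor of the response, had 34.8, 21.4, 56.5 and 31.1 CPM in af and 11.4, 14.0, 21.0 and 21.4 CPM in CHI9, and rose by 1.08 (SE 0.272, adjusted p = 0.00833). The receptor COI1 differed by -0.04 (adjusted p = 0.897).

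Steroidal glycoalkaloids are made from cholesterol by GAME enzymes. Of 9 tested loci 5 fell and 1 rose, with a median of -1.60, where 11.6% of all tested genes were lower and 8.86% higher. GAME6 (Solyc07g043460), a hydroxylase of the core steps, had 34.9, 32.7, 40.5 and 35.0 CPM in af and 99.1, 130, 154 and 132 CPM in CHI9, a fall of 1.85 (SE 0.177, adjusted p = 6.7e-07). GAME11 and GAME12, also of the core, fell by 1.67 and 1.60. The sterol reductase SSR2, which leads to cholesterol, fell by 1.76 (adjusted p = 0.00318). The glycosyltransferases of the last steps moved apart. GAME17 (Solyc07g043480) had 2.07, 1.54, 1.20 and 0.901 CPM in af and 9.08, 8.14, 5.10 and 7.11 CPM in CHI9, a fall of 2.34 (SE 0.326, adjusted p = 4.04e-05). GAME18 (Solyc07g043500), a near neighbour of GAME17 on chromosome 7, had 95.8, 84.95, 157 and 118 CPM in af and 18.0, 48.7, 41.2 and 37.8 CPM in CHI9. All its af libraries lay above all CHI9 libraries, and it rose by 1.65 (SE 0.283, adjusted p = 0.000705).

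Carotenoid genes also moved in both directions, with 4 of 14 tested loci lower and 2 higher and a median of -0.20. Over all tested genes 11.6% were lower and 8.86% higher. The desaturases PDS (Solyc03g123760) and ZDS (Solyc01g097810), which build lycopene, fell by 0.87 (SE 0.141, adjusted p = 0.000194) and 1.10 (SE 0.168, adjusted p = 0.000105). The isomerase CRTISO fell by 0.67 and the cleavage dioxygenase CCD1B by 0.60, and these 2 calls were lost with library size alone (adjusted p = 0.132 and 0.437). CCD1B was also lost without CHI9 replicate 4 or af replicate 3 or 4, with adjusted p of 0.0568 to 0.0804. Zeaxanthin epoxidase (ZEP, Solyc02g090890), which leads to violaxanthin, had 6.34, 10.4, 10.4 and 13.8 CPM in af and 0.746, 2.48, 2.19 and 2.06 CPM in CHI9. It rose by 2.48 (SE 0.507, adjusted p = 0.00161). CCD1A, the neighbour of CCD1B on chromosome 1, rose by 0.85 (SE 0.258, adjusted p = 0.0238), and was not called without af replicate 1 or 3 (0.0566 and 0.0574). Reads of the 2 paralogs may be split between them by the counting.

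The calls among enzymes that remove reactive oxygen, which flavonoids also scavenge, depended on the scaling. Of 9 listed loci 5 fell and 0 rose, with a median of -0.45, but with library size alone 0 fell and 1 rose. The shares of all tested genes were 11.6% lower and 8.86% higher under TMM, and 5.15% and 25.0% with library size alone. Catalases CAT2 (Solyc02g082760) and CAT3 (Solyc04g082460) fell by 0.65 and 0.60 (adjusted p = 0.00501 and 0.00231), and with library size alone differed by -0.26 and -0.21 without passing. CAT1 fell by 1.49 (adjusted p = 0.0247), and the superoxide dismutases Solyc11g066390 and MSD by 0.71 and 0.45. CAT1 was lost without CHI9 replicate 1 or af replicate 2, 3 or 4 (adjusted p of 0.0519 to 0.0863), and MSD without CHI9 replicate 1, 3 or 4 or af replicate 2, 3 or 4 (adjusted p of 0.0511 to 0.0847). The ascorbate peroxidases APX1 and APX2 differed by -0.25 and 0.34 and were not called. With library size alone APX2 was higher in af, at 0.73 (adjusted p = 0.0218).

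Among heat shock genes, which encode chaperones and their regulators, 3 of 8 tested rose and 0 fell, with a median of 0.95. Of all tested genes 8.86% were higher and 11.6% lower. The chaperone HSP101 (Solyc03g115230) had 48.2, 146, 17.2 and 125 CPM in af and 13.6, 15.9, 8.29 and 10.7 CPM in CHI9. It rose by 2.81 (SE 0.746, adjusted p = 0.0237), with af collections far apart from each other and differences of 1.01 to 3.48 within collections. The factor HSFB1 rose by 1.01 (adjusted p = 0.0107) and the small heat shock protein Solyc06g076570 by 1.63 (adjusted p = 0.0457). HSP101 was not called without CHI9 replicate 1, 3 or 4 or af replicate 2 or 4 (adjusted p of 0.0551 to 0.0699). Solyc06g076570 was not called without CHI9 replicate 2, 3 or 4 or af replicate 1, 2 or 4 (adjusted p of 0.0778 to 0.122), nor with lane 2 alone for af replicate 4 (0.0507). HSFA3, another factor, differed by 0.09 (adjusted p = 0.793).

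In the remaining lists few loci were called. ASR1 (Solyc04g071610), a protein of water stress and ripening, had 77.8, 68.5, 73.0 and 55.9 CPM in af and 325, 240, 178 and 125 CPM in CHI9, and fell by 1.66 (SE 0.224, adjusted p = 3.84e-05). The other 2 water stress loci were not called. For sucrose use, 1 of 8 tested loci rose, the transporter SUT4 at 2.46 (SE 0.692, adjusted p = 0.0155), and 1 fell, the sucrose synthase SUS4 at -0.78 (adjusted p = 0.0214). Both counts are near the shares of all tested genes (8.86% higher and 11.6% lower). SUS4 was not called with library size alone (0.252), nor without CHI9 replicate 3 (0.104) or af replicate 2 (0.0577) or 3 (0.0642), and SUT4 was not called without af replicate 4 (0.0845). Of 5 tested cutin and wax loci CER6 alone was called. Of the 8 genes often used as references, 2 fell under TMM, an actin at Solyc03g078400 by 0.54 (adjusted p = 0.0147) and TIP41 by 0.53 (adjusted p = 0.016). The actin was not called without af replicate 4 (0.0615), nor TIP41 without af replicate 2 (0.0504). With library size alone neither was called, and 3 others of the 8 were higher in af.

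**Figure D4:**
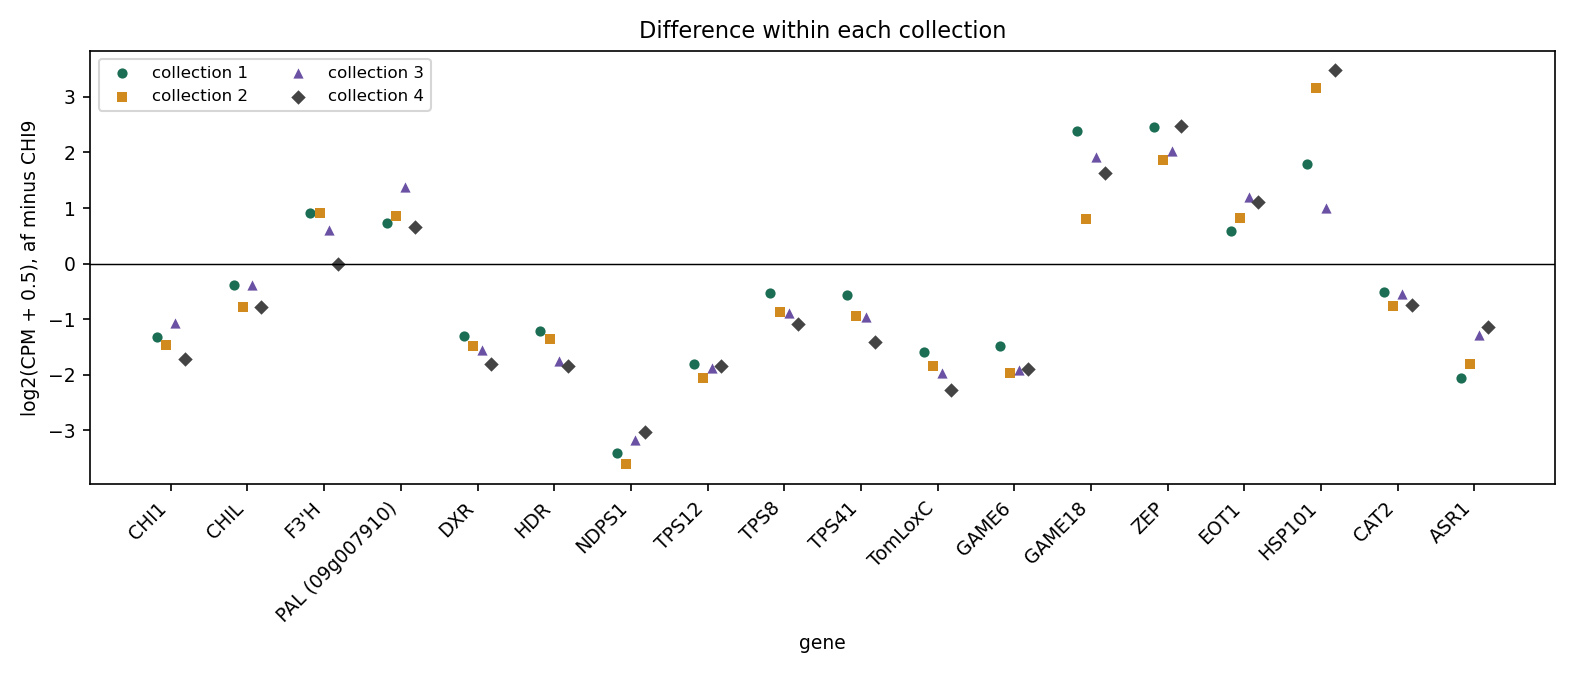
The difference in log2(CPM + 0.5) between the af and the CHI9 library of each of the 4 collections for 18 genes, with a shape for each collection. NDPS1 lies between -3.62 and -3.04 in all collections, whereas F3'H is near 0 in collection 4, and HSP101 ranges from 1.01 to 3.48.

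Across the 24 lists, 162 of 197 loci were tested, 63 fell and 15 rose, where 11.6% of all tested genes were lower and 8.86% higher, so the share that rose was close to that of all genes. The af library was the lower of the pair in 4 of 4 collections for 60 of the 63 and the higher for 14 of the 15. The calls were made on the same libraries, so this agreement is no separate support. Among all called genes it held for 96.2% of the lower and 96.7% of the higher. The other 35 loci had too few counts to be tested.

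The lines CHI9 and CHI4 were compared directly, since their comparisons with af share the af libraries. Of the tested genes 17 differed between the lines (0.0928%), of which 0 were listed, and 12 of the 17 were among the 3750 genes called between af and CHI9. Both comparisons use the CHI9 libraries, which by itself raises this overlap. Of all tested genes 20.5% were called between af and CHI9. CHI1 had a mean of 831 CPM in CHI4 and 685 CPM in CHI9 (log2 difference of CHI9 minus CHI4 -0.28, adjusted p = 0.926). As af minus the line, the log2 difference of NDPS1 was -3.29 with CHI9 and -3.37 with CHI4, that of TPS12 was -1.90 and -1.89, and that of EOT1 was 0.93 and 1.05. Other genes were less alike, with -3.22 and -4.20 for TPS17 and -4.09 and -3.58 for TPS33. Neither of these was called between the lines (adjusted p = 0.294 and 0.923). Missing the threshold does not show that the lines were equal. Of the 3750 genes, 391 differed between the lines at an unadjusted edgeR p below 0.05, a count that the shared CHI9 libraries also raise.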

How the data were processed

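Counts per gene model were deposited as 1 table per lane, with 34725 gene models and no normalization. Trimmomatic, TopHat2, SAMtools and HTSeq were used by the authors, per the submitters' processing notes. The sources used here give no version, genome build, annotation or strand setting, so genes that overlap or lie antisense to each other may share reads, and it is not recorded whether a count is a read or a pair. Lanes of a library were summed. The 5 summary entries of each table were left out (8.49% to 12.2% of reads in no gene, 3.67% to 6.01% ambiguous, 4.68% to 7.56% aligned more than once).

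Counts were tested in R 4.3.3 with edgeR 4.0.16 (TMM, filterByExpr, robust quasi-likelihood), on 12 libraries and 3 genotypes in 1 fit, with Benjamini-Hochberg adjustment over 18326 genes and a threshold of 0.05. Adjusted p-values are from this fit unless another is named. The fit was tested on simulated data first, where it recovered 4% of 50 genes set to differ by 0.5 on the log2 scale. For differences of 1, 2 and 3, with 50 genes each, it recovered 34%, 68% and 76%, and 4 calls were false. The choice of scaling was not tested there. Levels are TMM-scaled CPM, with a pseudocount of 0.5 CPM for differences within a collection. DESeq2 1.42.0, limma-voom (limma 3.58.1), other scalings, filters, lanes, halved counts and leaving out each library were alternatives. TMM factors were 1.10 to 1.28 in af and 0.873 to 0.988 in CHI9.

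Per the labels, the genotypes share sampling times, so collection numbers pair the libraries. Deviations of the paired af and CHI9 libraries from their group means correlated at 0.14, -0.04, 0.06 and 0.18. The labels speak of independent collections, and nothing more says how plants were shared, so p-values measure the spread between these collections. A block for the collection was an alternative, and its value is given where it changed a call.

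Gene lists (197 loci in 24 lists) were chosen with earlier results of these data known. Locus numbers stand without names in the files, and 0 gene models matched the reference table by identifier. Names come from locus numbers by general knowledge. Of the listed names 106 are RefSeq symbols, of which 104 lie on the chromosome in the locus number, and SSR2 is 1 of the 2 that do not. Named genes were CHI1, list members, and the first 2 unlisted loci in each direction, ranked by log2 difference among called genes with no overlap and a mean of at least 5 CPM. Floors for a count of 0 are 3 counts. Sequences are not used here.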

Additional observations from a re-analysis of the deposited data

Results flagged for a closer look

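In 12 of 208 groups of 4 libraries, 1 library lay far from the other 3 for a named gene, with a gap beyond Dixon's critical value for 4 values. Chance gives about 1 in 20 such groups, and 5.77% were found. In CHI9 replicate 3, 3 isoprenoid genes were high. HMGR1 had 80.4 CPM there against 38.3 to 44.6 in the other CHI9 libraries, FPS1 had 202 against 82.9 to 95.5, and TPS8 had 302 against 158 to 164. In CHI9 replicate 1, CD2 had 44.8 CPM against 32.3 to 33.6, the Rubisco subunit Solyc03g034220 had 291 against 252 to 258, and CAT1 had 9.24 against 4.599 to 4.80. In CHI9 replicate 2, HY5 had 24.6 CPM against 16.6 to 17.9 and the light-harvesting locus Solyc03g005760 had 321 against 271 to 278. Among the af libraries, Solyc03g005770 was high in replicate 1 at 4.46 CPM (3.00 to 3.17 in the others) and Solyc03g005780 in replicate 2 at 5.46 CPM (2.00 to 2.59). In af replicate 3, SSR2 had 30.8 CPM against 10.2 to 12.3, and TIP41 had 50.2 CPM against 38.7 to 40.5.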

How the results depend on the processing

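The counts of genes higher and lower in af stayed within 1.5-fold under every alternative but scaling to library size alone, which gave 4583 higher and 944 lower genes. With the replicate block, which pairs libraries by collection, 2200 genes rose and 2537 fell, with 3701 of the 3750 calls kept in direction. With DESeq2 1946 and 2539 were called, and with limma-voom 1989 and 2124. Leaving out each replicate in turn gave 1091 to 1770 higher and 1642 to 2148 lower genes. CHI1 was lower in af in all of these fits, at -1.55 to -1.02. Of 78 listed genes called, 56 were called in the same direction under every alternative in which they were tested. A locus that the low-count filter removed under an alternative was not counted as lost there. With library size alone 12 were lost. Under the replicate block with all 12 libraries 0 were lost and 10 calls were added. Of those 10, the ones not printed beside their results are AACT Solyc05g017760, the carotenoid cyclase LCYB1 and the small heat shock protein Solyc06g076560 (adjusted p = 0.05, 0.0356 and 0.0241). Limma-voom did not call TPS3, HY5, AACS1 and HSP101 (adjusted p = 0.126, 0.1, 0.193 and 0.106). With all 12 libraries the block changed no other call of a listed gene. In the af and CHI9 libraries alone the block lost AACS1 and HY5 (adjusted p = 0.119 and 0.0502) and added the small heat shock protein Solyc06g076520 (0.0141). SQS1 reversed, from -0.02 to 0.36, with library size alone. The alternatives do not show why the scalings differ, and the cause was not tested. Depth limits scarce transcripts most, since CHI9 replicate 2 allows up to 0.334 CPM at a count of 0.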

Other observations

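The 17 genes that differed between CHI9 and CHI4 were 11 higher and 6 lower in CHI9, and 3 of the 11 are near neighbours on chromosome 2. They are printed for their place, which was noticed after their values were seen. Solyc02g070590 had means of 31.3 CPM in af, 386 CPM in CHI9 and 97.7 CPM in CHI4, Solyc02g070600 had 10.2, 55.9 and 15.1 CPM, and Solyc02g070670 had 42.3, 115 and 57.6 CPM. The lines differed by 1.98 (edgeR adjusted p = 0.0476), 1.89 (0.000434) and 1.00 (0.00717) on the log2 scale. Of the 8 tested loci from the first to the last of these, 5 were lower in af than in CHI9, among them the 3 that set the stretch. Over all tested genes 11.6% were lower. Since the stretch was chosen by its values, the count is no test of the region. The listed light-harvesting locus Solyc02g070940 lies further along by locus number, outside this stretch, and was not among the 17 genes that differed between the lines.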
